A study of Homo sapiens with 18 samples.

Results

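AIDA, its processed pseudogene AIDAP1 and 5 genes that neighbour AIDA on chromosome 1 (MIA3, TAF1A, BROX, FAM177B and DISP1) were followed across the groups of an RNA-sequencing experiment on 16D prostate cancer cells, a line able to grow without androgen. These 7 genes are among 26900 gene symbols analysed. AIDA and AIDAP1 were chosen by their measured TPM, because both were far higher with drug, so their differences between groups, and those of their sum, are given as descriptions without a test. The 5 neighbours were chosen by position. All 7 had a value in every library, but only AIDA, AIDAP1, BROX and MIA3 reached 1 TPM in at least 3 libraries and entered the main tests with 13416 genes in all. TPM is a transcript level per unit of transcript length, scaled to the same sum in each library, so the depth behind a value is unknown.

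Every group was made from 16D cells that had received lentivirus for Cas9 and a guide RNA and had then spent 6 weeks in the antiandrogen enzalutamide (Enza, 10 µM) or in DMSO, its vehicle. The groups were sgOGDHL_1 in Enza, sgOGDHL_2 in Enza, sgAAVS in Enza, sgOGDHL_1 in DMSO, sgOGDHL_2 in DMSO and sgAAVS in DMSO, with 3 libraries each and 18 in all. The guides sgOGDHL_1 and sgOGDHL_2 target OGDHL, whose product resembles a subunit of an enzyme of the citric acid cycle, and sgAAVS targets a safe-harbour site. No label says whether the replicates are separate cultures. The p-values therefore reflect the scatter of these libraries alone, which may be technical.

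AIDA encodes a protein that binds Axin and was found in zebrafish to restrain Axin-driven JNK signalling in the early embryo. In mouse intestine it takes part in the ER-associated degradation of enzymes of fat synthesis. A processed pseudogene such as AIDAP1 is a copy of a spliced mRNA inserted elsewhere in the genome, so its sequence resembles the coding exons of its parent. AIDA lies on the minus strand of chromosome 1 (chr1:222668013-222713210, GRCh38, GENCODE release 29). BROX (chr1:222712553-222735196), which encodes a Bro1-domain protein that binds the membrane-cutting ESCRT-III machinery, begins at AIDA's 5′ end and runs the other way. MIA3 (chr1:222618086-222668012), which encodes TANGO1, a protein that loads collagen into vesicles at ER exit sites, ends 1 base before AIDA's 3′ end. TAF1A (chr1:222557902-222589933) encodes a subunit of the selectivity factor of RNA polymerase I. FAM177B (chr1:222737207-222750805) and DISP1 (chr1:222872271-223005995), which encodes Dispatched, a transporter that releases Hedgehog proteins, lie beyond BROX. The gene bodies of AIDA and BROX overlap on opposite strands. The library kit marks strand, but whether the counting used it is not given in the sources used here.

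AIDAP1 lies on chromosome 2 (chr2:11307866-11309138, GRCh38), on the plus strand inside ROCK2, which is read from the minus strand. Its transcript of 917 bases matched the AIDA mRNA at 898 bases, an identity of 97.9% with 19 substitutions, and it covered 914 of the 918 coding bases. A second copy, AIDAP2, is no neighbour of AIDA but shares its sequence (chr4:158277730-158278873, identity 97.6% over 871 aligned bases). The third copy, AIDAP3 on chromosome 18, has an identity of 88.4% and was not analysed here. Libraries were read as pairs of 50 bases. Of the 868 windows of 50 bases in AIDAP1, 272 (31.3%) occurred without any mismatch in the AIDA transcript of 3008 bases, and 436 of the 2959 windows of that transcript occurred in a copy. Coding bases 41 to 100, counted from 1 at the A of the AIDA start codon, show how few bases tell the copies apart. Capitals mark the positions at which any of the 3 sequences differs (T65G and G100A in AIDAP1; G61A, C71T, T83C and C99T in AIDAP2). The sequences are from GENCODE release 29:
AIDA: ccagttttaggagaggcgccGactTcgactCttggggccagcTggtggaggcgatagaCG
AIDAP1: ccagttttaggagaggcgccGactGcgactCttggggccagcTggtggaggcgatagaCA
AIDAP2: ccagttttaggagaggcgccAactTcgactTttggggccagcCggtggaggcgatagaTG

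The RefSeq starts of AIDA (minus strand, 222712491) and BROX (plus strand, 222712564) are 73 bases apart and face away from each other, so the same short interval lies before both genes. Its 72 bases are shown because they separate the starts of the AIDA and BROX transcripts, both of which were higher in Enza libraries. Capitals mark 4 GC boxes (CCGCCC, searched on both strands as GGGCGG and CCGCCC after the sequence had been seen); 45% of all promoters in the table hold at least 1. The GC content is 80.6%, against a median of 58.7% over promoters. Both background values are for windows of 300 bases, longer than this interval. On that length the AIDA window holds 64.3% GC and the upstream BROX window 73.0%. The sequence is from RefSeq on GRCh38.p14, plus strand, chr1:222712492-222712563:
AIDA-BROX interval: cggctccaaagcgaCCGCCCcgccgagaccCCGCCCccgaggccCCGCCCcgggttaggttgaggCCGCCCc
Exact matches to a full androgen response element were present in 0.00285% of 35116 RefSeq promoter windows of 300 bases around a start, and in none of the 11 windows of AIDA, BROX, FAM177B, DISP1, TAF1A and MIA3. A single arm of that element, AGAACA (or TGTTCT), held by 14.8% of windows, was in both FAM177B windows and in none of the others. The forkhead motif TGTTTAC (or GTAAACA), held by 3.42%, was in the downstream one of the BROX windows only. These windows say nothing of sites farther away.

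One set of libraries stood apart. Those labelled sgOGDHL_2 in DMSO correlated at 0.884 to 0.922 with the other 15, which correlated among themselves at 0.950 to 0.998, and listed 1407 to 1630 rows at 0, against 3042 to 4498 rows. The targeted gene OGDHL averaged 1.03 TPM (sgOGDHL_1) and 1.74 TPM (sgOGDHL_2) in Enza, against 3.37 TPM with sgAAVS in Enza. In DMSO it averaged 0.849 TPM (sgOGDHL_1) and 3.03 TPM in the libraries labelled sgOGDHL_2, against 2.15 TPM with sgAAVS. Under that last OGDHL label the mRNA of the targeted gene was thus not below the control level, and whether the label is right was not tested. Mitochondrially encoded genes took 50.1% to 73.8% of TPM, most in sgOGDHL_1 DMSO replicates 1 and 2. KLK3, the androgen-driven gene for prostate-specific antigen, averaged 58.6 TPM in sgAAVS Enza libraries against 379 TPM in sgAAVS DMSO libraries, but 834 TPM in sgOGDHL_1 Enza libraries against 314 TPM in sgOGDHL_1 DMSO libraries. All 9 luminal prostate markers were at 1 TPM or more in every library, and the summed leukocyte and endothelial markers stayed at or below 1.50 and 0.458 TPM. The 4 basal markers summed to 1.62 to 4.20 TPM and the 5 fibroblast markers to 3.77 to 8.90 TPM. The 5 neuroendocrine markers summed to 15.8 to 35.5 TPM in Enza libraries, against 3.36 to 8.54 TPM in DMSO libraries. Most of that was ENO2, a neuronal enolase, which averaged 16.0 against 4.64 TPM with sgOGDHL_1, 23.2 against 6.72 TPM with sgOGDHL_2 and 30.6 against 5.83 TPM with sgAAVS. The other 4 reached at most 0.893 TPM (SYP), with CHGA at or below 0.0229 TPM and INSM1 at or below 0.0977 TPM. ENO2 thus moved with the drug alongside AIDA, and its part in the results was not tested.

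AIDA stood at 211, 158 and 180 TPM in sgAAVS Enza libraries, against 8.64, 8.90 and 8.32 TPM in sgAAVS DMSO libraries. With sgOGDHL_1 it was 112, 102 and 101 TPM in Enza, against 6.33, 6.71 and 8.62 TPM in DMSO. With sgOGDHL_2 it was 182, 163 and 183 TPM in Enza, against 8.79, 8.19 and 7.77 TPM in the libraries labelled DMSO. Every Enza library was thus more than an order of magnitude above every DMSO library, whichever guide it carried. The ratio of group means was 14.5 with sgOGDHL_1, 21.3 with sgOGDHL_2 and 21.2 with sgAAVS. On the log2(TPM + 1) scale the difference was 3.70, 4.26 and 4.25 in that order of guides, with a fitted standard error of 0.13 each. Among the 13416 tested genes AIDA ranked 3 by size of increase with either OGDHL guide and 5 with sgAAVS. By level it ranked 306 of 26900 genes in sgAAVS Enza libraries, against 4508 in sgAAVS DMSO libraries.

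AIDAP1 had nearly the same TPM as its parent gene. It stood at 195, 149 and 189 TPM in sgAAVS Enza libraries, against 8.84, 8.31 and 10.3 TPM in sgAAVS DMSO libraries. With sgOGDHL_1 it was 109, 115 and 112 TPM in Enza, against 8.53, 7.63 and 8.85 TPM in DMSO, and with sgOGDHL_2 it was 191, 166 and 185 TPM in Enza, against 8.07, 7.57 and 7.55 TPM. The ratio of group means was 13.4, 23.3 and 19.4 for sgOGDHL_1, sgOGDHL_2 and sgAAVS. The quotient of AIDAP1 over AIDA within a library lay between 0.918 and 1.35 in all 18 libraries. It averaged 0.972 ± 0.0681 in sgAAVS Enza libraries and 1.06 ± 0.158 in sgAAVS DMSO libraries (SD, n = 3 each). The libraries thus differed far more in the level of the pair than in its division.

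**Figure D1:**
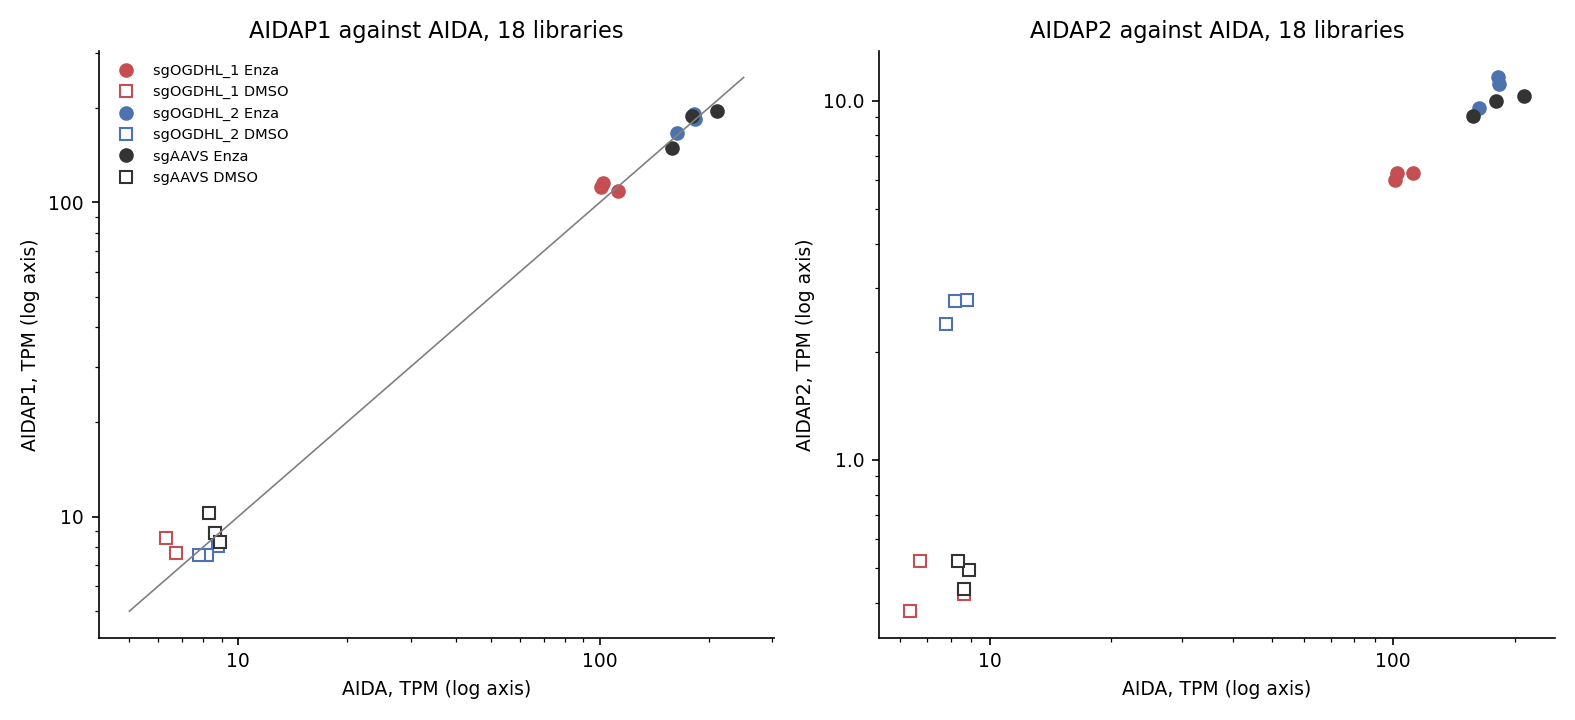
TPM of AIDAP1 (left) and AIDAP2 (right) against TPM of AIDA, both axes logarithmic, 1 point per library, with colour for the guide, filled circles for Enza and open squares for DMSO; the line marks equal TPM. AIDAP1 lies at 0.918 to 1.35 times AIDA in all 18 libraries, and AIDAP2 lies at 4.89% to 7.78% of AIDA except in the 3 libraries labelled sgOGDHL_2 DMSO, where it is 30.7% to 33.9%.

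Since reads of the copies may have been divided arbitrarily by the counting, the summed TPM of AIDA and AIDAP1 was followed too. The sum is free of that division only as far as both rows have a like length. The transcripts compared above have 3008 bases for AIDA and 917 for AIDAP1, and the lengths used for TPM are not known. The sum was 406, 306 and 369 TPM in sgAAVS Enza libraries, against 17.5, 17.2 and 18.7 TPM in sgAAVS DMSO libraries. With sgOGDHL_1 it was 221, 216 and 213 TPM in Enza, against 14.9, 14.3 and 17.5 TPM in DMSO. With sgOGDHL_2 it was 373, 329 and 368 TPM in Enza, against 16.9, 15.8 and 15.3 TPM. Enza and DMSO libraries did not overlap for any guide, and the ratio of group means was 13.9, 22.3 and 20.3 for sgOGDHL_1, sgOGDHL_2 and sgAAVS. The log2 difference was 3.72, 4.39 and 4.26 in the same order, with a standard error of 0.12 each.

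AIDAP2, the copy on chromosome 4, was 10.3, 9.08 and 10.0 TPM in sgAAVS Enza libraries, against 0.438, 0.492 and 0.523 TPM in sgAAVS DMSO libraries. It amounted to 5.40% ± 0.454 of AIDA's TPM in Enza and 5.63% ± 0.616 in DMSO with sgAAVS (SD, n = 3 each). The libraries labelled sgOGDHL_2 DMSO stood apart, with 2.79, 2.77 and 2.39 TPM or 32.1% ± 1.64 of AIDA (SD, n = 3), against 6.09% ± 0.261 in sgOGDHL_2 Enza libraries. Its level there was 5.47 times the sgAAVS DMSO level (log2 difference 1.30). This value carries no test, because AIDAP2 was brought in after the data were seen. The median of all tested genes in that comparison was 0.18, and 41.0% were called higher. The level of AIDA differed by -0.057 on the log2 scale (-0.36 after median-of-ratios scaling, -0.31 after quantile normalization).

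**Figure D2:**
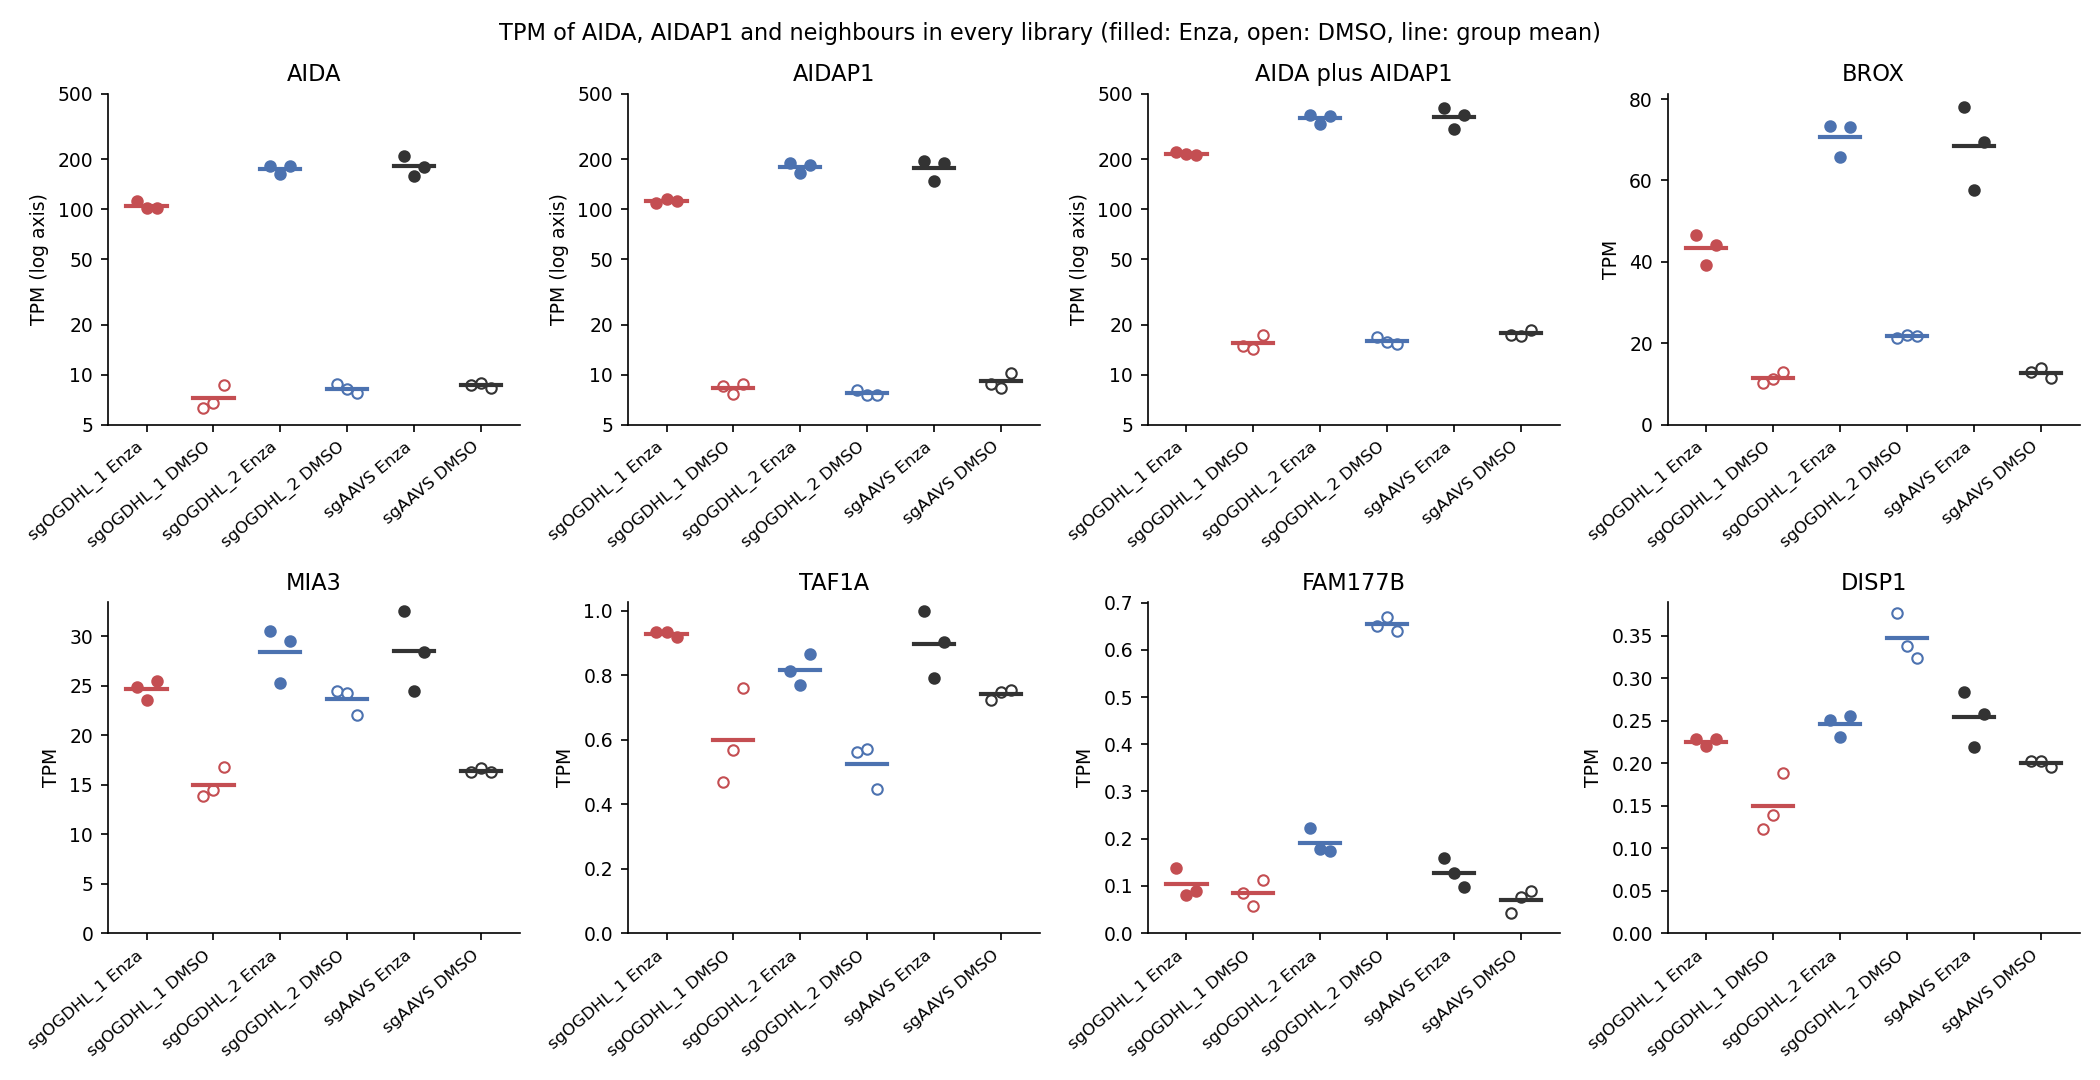
TPM of each of the 7 genes and of the AIDA plus AIDAP1 sum in every library, with a logarithmic axis for the panels of AIDA, AIDAP1 and their sum and a linear axis from 0 for the rest; filled points are Enza, open points DMSO, and lines group means of 3 libraries. AIDA in sgAAVS libraries sits at 158 to 211 TPM in Enza and 8.32 to 8.90 TPM in DMSO, while TAF1A, FAM177B and DISP1 stay at or below 1.00 TPM everywhere.

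BROX, which starts next to AIDA and runs the other way, rose with Enza in all 3 guide backgrounds. It was 78.0, 57.7 and 69.4 TPM in sgAAVS Enza libraries, against 13.0, 13.9 and 11.4 TPM in sgAAVS DMSO libraries. That is 5.37 times the vehicle level (log2 difference 2.33 ± 0.13 SE, limma adjusted p = 1.4e-10), with no overlap, and rank 24 among tested genes. In sgOGDHL_1 libraries it was 46.5, 39.3 and 44.1 TPM in Enza, against 10.3, 11.1 and 12.9 TPM in DMSO (3.77 times, log2 difference 1.83, limma adjusted p = 9.3e-09). In sgOGDHL_2 libraries it was 73.4, 65.8 and 73.2 TPM in Enza, against 21.4, 21.9 and 21.8 TPM in the libraries labelled DMSO (3.26 times, log2 difference 1.66, limma adjusted p = 3.5e-09). The rise of BROX was smaller than the difference of AIDA in each guide background. Within a library, AIDA was 2.60 to 2.73 times BROX in sgAAVS Enza libraries, against 0.641 to 0.731 times BROX in sgAAVS DMSO libraries, a quotient that no scaling of a library can change. AIDA was thus the higher of the pair in Enza and the lower in DMSO, and the same order held with sgOGDHL_1 (2.30 to 2.59 in Enza, 0.603 to 0.666 in DMSO) and sgOGDHL_2 (2.47 to 2.50 in Enza, 0.356 to 0.410 in DMSO).

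MIA3, which abuts the other end of AIDA, rose by less. It was 32.5, 24.4 and 28.4 TPM in sgAAVS Enza libraries, against 16.3, 16.7 and 16.3 TPM in sgAAVS DMSO libraries (1.73 times, log2 difference 0.75 ± 0.12 SE, limma adjusted p = 1.3e-04, rank 351). With sgOGDHL_1 it was 24.9, 23.5 and 25.5 TPM in Enza, against 13.8, 14.4 and 16.8 TPM in DMSO (1.64 times, log2 difference 0.68, limma adjusted p = 5.7e-04). With sgOGDHL_2 it was 30.5, 25.3 and 29.5 TPM in Enza, against 24.4, 24.2 and 22.0 TPM in the libraries labelled DMSO, without overlap but also without a call (1.21 times, log2 difference 0.26, limma adjusted p = 0.07). That last value was larger and passed with median-of-ratios scaling (0.69, limma adjusted p = 5.8e-06), and the sgOGDHL_1 value did not pass in a fit of its own 6 libraries (0.68, limma adjusted p = 0.075). The sgOGDHL_1 value passed but was smaller with median-of-ratios scaling (0.37), quantile normalization (0.35) and mitochondrially encoded genes removed (0.41). AIDA was 6.34 to 6.50 times MIA3 in sgAAVS Enza libraries, against 0.511 to 0.532 times in sgAAVS DMSO libraries.

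The remaining neighbours were low. TAF1A was 1.00, 0.791 and 0.904 TPM in sgAAVS Enza libraries, against 0.723, 0.749 and 0.755 TPM in sgAAVS DMSO libraries. Its Enza libraries lay above its DMSO libraries in each guide background, by a log2 difference of 0.27 with sgOGDHL_1, 0.25 with sgOGDHL_2 and 0.12 with sgAAVS. With no filter on low values, these differences passed with sgOGDHL_1 (limma adjusted p = 0.0063) and sgOGDHL_2 (limma adjusted p = 0.0025) but not with sgAAVS (limma adjusted p = 0.18). Over the genes of the main fit, the median was 0.23 with sgOGDHL_1 and -0.30 with sgOGDHL_2, with 26.3% and 11.2% called higher. DISP1 was 0.284, 0.219 and 0.258 TPM in sgAAVS Enza libraries, against 0.202, 0.203 and 0.196 TPM in sgAAVS DMSO libraries. It lay higher in Enza with sgOGDHL_1 too (0.225 ± 0.00445 against 0.150 ± 0.0342 TPM, SD, n = 3 each), but lower with sgOGDHL_2 (0.246 ± 0.0127 against 0.347 ± 0.0275 TPM). With no filter the log2 difference of DISP1 was 0.092 with sgOGDHL_1 (limma adjusted p = 0.011), -0.11 with sgOGDHL_2 (limma adjusted p = 5.6e-04) and 0.063 with sgAAVS (limma adjusted p = 0.059). The sgOGDHL_2 value was -0.0082 with median-of-ratios scaling. Of the genes in the main fit, 26.3% were called higher with sgOGDHL_1 and 48.3% lower with sgOGDHL_2. FAM177B was 0.160, 0.128 and 0.0967 TPM in sgAAVS Enza libraries, against 0.0427, 0.0771 and 0.0893 TPM in sgAAVS DMSO libraries. With sgOGDHL_2 it was 0.223, 0.179 and 0.173 TPM in Enza, against 0.651, 0.670 and 0.640 TPM in the libraries labelled DMSO, the highest values of this gene anywhere. With no filter the log2 difference of FAM177B was -0.47 with sgOGDHL_2 (limma adjusted p = 2.6e-09), 0.022 with sgOGDHL_1 (limma adjusted p = 0.63) and 0.077 with sgAAVS (limma adjusted p = 0.058). The shares of called genes above come from the main fit, which left out TAF1A, DISP1 and FAM177B, so they are not a like background. The share called with no filter is not given here. The depth behind these low values is unknown.

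Across the wider neighbourhood, 35 annotated genes other than AIDA lie within 1 Mb of it, 15 of them with a named row and 6 of those tested. With sgAAVS, 3 of the 6 (BROX, MIA3 and DUSP10) were called higher and CAPN2 lower in Enza, with a median log2 difference of 0.36, against -0.049 over all tested genes. Of all tested genes, 9.28% were called higher and 11.6% lower in that comparison. With sgOGDHL_1, 4 of the 6 were called higher (DUSP10, TAF1A-AS1, MIA3 and BROX; background 26.3%), with a median of 0.32 against 0.23 over all tested genes. With sgOGDHL_2, BROX alone of the 6 was called higher (background 11.2%), 3 were called lower (background 48.3%), and the median was -0.33 against -0.30.

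DUSP10, a phosphatase that inactivates JNK and p38 kinases, lies 925837 bases from AIDA and was low. It averaged 1.39 ± 0.261 TPM in sgAAVS Enza libraries and 0.685 ± 0.0247 TPM in sgAAVS DMSO libraries (SD, n = 3 each; log2 difference 0.50, limma adjusted p = 1.7e-04). CAPN2, a calpain protease at 988383 bases on the other side, averaged 2.26 ± 0.346 TPM and 3.79 ± 0.0383 TPM in the same groups (log2 difference -0.56, limma adjusted p = 0.0014). TAF1A-AS1, read from the strand opposite TAF1A, averaged 4.23 ± 0.687 TPM and 3.43 ± 0.246 TPM (log2 difference 0.23, limma adjusted p = 0.18). It rose with Enza in sgOGDHL_1 libraries (log2 difference 0.35, limma adjusted p = 0.03) and fell in sgOGDHL_2 libraries (log2 difference -0.63, limma adjusted p = 1.3e-04), where DUSP10 (-0.71, adjusted p = 7.4e-07) and CAPN2 (-1.92, adjusted p = 8.3e-11) also fell. NDUFB1P2, a pseudogene within DISP1, was not called with any guide (0.452 ± 0.194 TPM in sgAAVS Enza, 0.781 ± 0.425 TPM in sgAAVS DMSO libraries). SUSD4, under 1 TPM and so not tested, averaged 0.837 ± 0.107 TPM in sgAAVS Enza libraries and 0.0977 ± 0.00234 TPM in sgAAVS DMSO libraries. The ratio of these means was larger than that of BROX (5.37 times), though the log2 difference of SUSD4 was 0.74. It is named after its values were seen. Between BROX and SUSD4 lie FAM177B, DISP1, NDUFB1P2 and TLR5, whose log2 differences with sgAAVS ranged from -0.28 to 0.37.

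**Figure D3:**
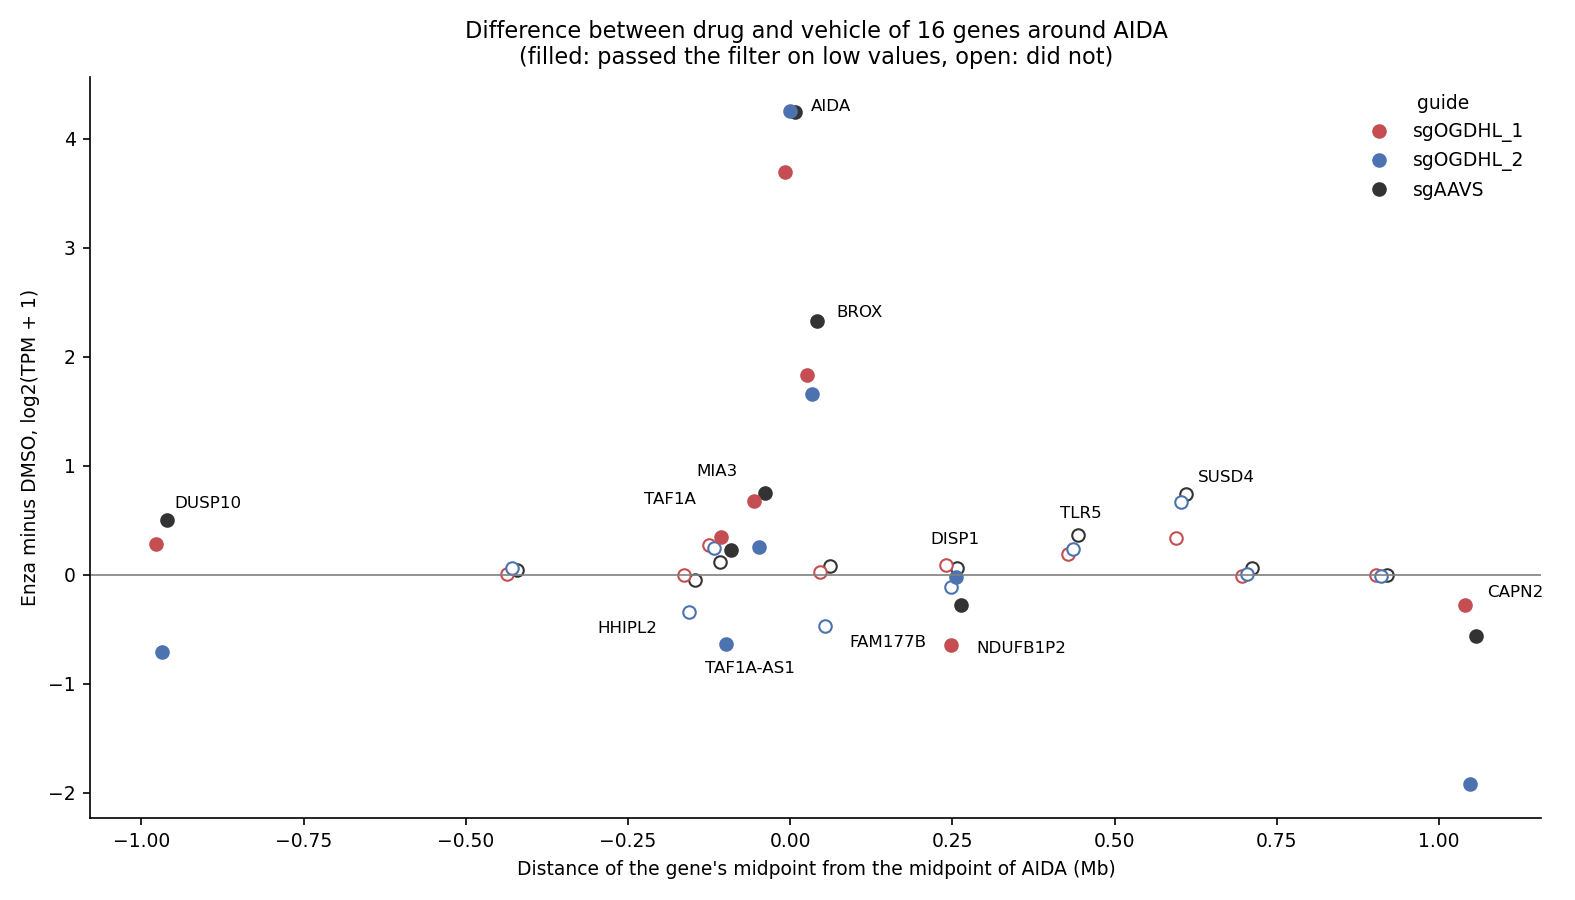
Difference between Enza and DMSO on the log2(TPM + 1) scale for the 16 genes with a named row within 1 Mb of AIDA, AIDA included, against distance between gene midpoints in Mb, 1 point per gene and guide, the guides set slightly apart sideways so that points stay visible; filled points passed the filter on low values and open points did not. On this scale AIDA (3.70 to 4.26) and BROX (1.66 to 2.33) stand above every other gene in the window, the next being MIA3 and SUSD4 at up to 0.75 and 0.74. The scale understates the change of low genes: SUSD4 averaged 0.837 TPM in sgAAVS Enza and 0.0977 TPM in sgAAVS DMSO libraries, a larger ratio than that of BROX.

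No tested gene around AIDAP1 was called higher with it in sgAAVS libraries. Of 51 annotated genes within 1 Mb of AIDAP1, a count that includes its own GENCODE entry, 19 had a named row and 8 were tested. With sgAAVS 4 of the 8 were called lower in Enza by limma and 0 higher, as at an unadjusted p under 0.05. Over all tested genes 11.6% were called lower and 9.28% higher. A count of 0 among 8 is near that background. ROCK2, the kinase gene in which AIDAP1 lies, was 1.65 ± 0.278 TPM in sgAAVS Enza libraries and 1.59 ± 0.0568 TPM in sgAAVS DMSO libraries (SD, n = 3 each; log2 difference 0.028, limma adjusted p = 0.87). The 4 that fell were ODC1, the first enzyme of polyamine synthesis (log2 difference -0.89, adjusted p = 4.7e-04), PDIA6, an ER disulphide isomerase (-0.59, adjusted p = 0.0061), GREB1, a hormone-responsive gene (-0.53, adjusted p = 3.5e-04), and LPIN1, a phosphatidate phosphatase (-0.46, adjusted p = 0.016). With sgOGDHL_1, the cell-cycle repressor gene E2F6 alone rose (0.41, adjusted p = 0.021) and LPIN1 alone fell (-0.55, adjusted p = 0.0063), against 26.3% and 3.54% of all tested genes. With sgOGDHL_2, NOL10, which encodes a nucleolar protein, alone rose (0.21, adjusted p = 0.035) and GREB1 alone fell (-1.14, adjusted p = 8.7e-09), against 11.2% and 48.3%.

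In enzalutamide, AIDA and its closest neighbour were lower with the first OGDHL guide than with the control guide. AIDA was 112, 102 and 101 TPM in sgOGDHL_1 Enza libraries, against 211, 158 and 180 TPM in sgAAVS Enza libraries (log2 difference -0.79 ± 0.13 SE). The log2 difference was -0.65 for AIDAP1 and -0.72 for the sum, whose level was 0.602 times that with sgAAVS, with no overlap of libraries. These 3 values carry no test, because the same Enza libraries served to choose the genes. BROX, chosen by position, fell to 0.633 times the sgAAVS level, also with no overlap (log2 difference -0.64, limma adjusted p = 0.0033), in a comparison in which 4.91% of all tested genes were called lower. MIA3 did not pass (-0.19, limma adjusted p = 0.45). KLK3 moved with this difference, being highest in the sgOGDHL_1 Enza libraries (772 to 888 TPM, against 53.5 to 67.7 TPM in sgAAVS Enza libraries); its part in the result was not tested. With the second guide, limma called neither BROX (adjusted p = 0.92) nor MIA3 (adjusted p = 0.99) against sgAAVS in Enza, nor did either reach an unadjusted p under 0.05. Few genes were called at all in that comparison (0.678% higher and 0.574% lower). The log2 difference was -0.048 for AIDA, 0.032 for AIDAP1, -0.0086 for the sum, 0.058 for BROX and 0.0038 for MIA3, with a standard error of 0.12 or 0.13 each.

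**Figure D4:**
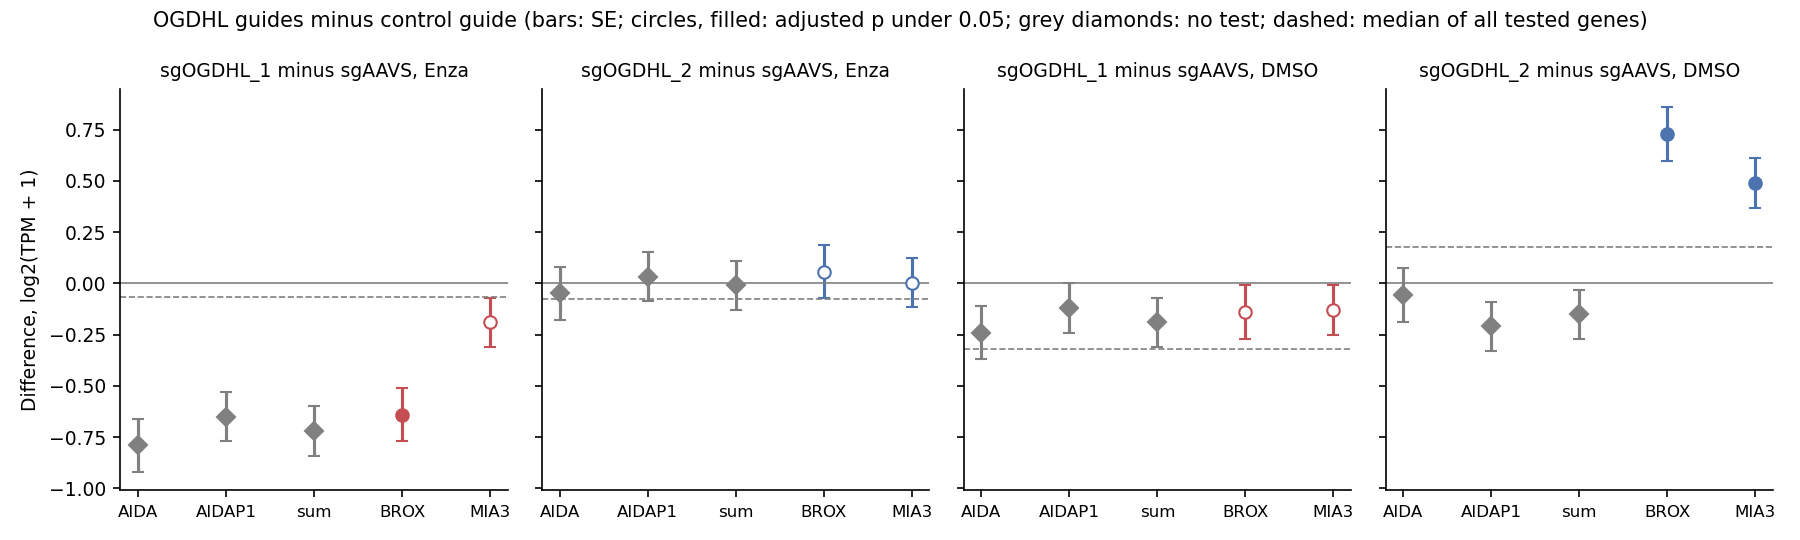
Difference between each OGDHL guide and the control guide on the log2(TPM + 1) scale, in Enza (left pair of panels) and in DMSO (right pair), for AIDA, AIDAP1, their sum, BROX and MIA3; bars are fitted standard errors, grey diamonds carry no test, filled circles have an adjusted p under 0.05 and dashed lines mark the median of all tested genes. In the sgOGDHL_1 Enza panel AIDA (-0.79), AIDAP1 (-0.65), the sum (-0.72) and BROX (-0.64, filled) lie well below 0; the other filled circles are BROX (0.73) and MIA3 (0.49) for sgOGDHL_2 in DMSO.

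In vehicle, the log2 difference of the sum of AIDA and AIDAP1 from the control guide was -0.19 with sgOGDHL_1 and -0.15 in the libraries labelled sgOGDHL_2. These small values depended on the scaling, because the median of all tested genes was itself -0.32 for sgOGDHL_1 and 0.18 for sgOGDHL_2. Relative to that median the difference of the sum was 0.14 with sgOGDHL_1 and -0.33 with sgOGDHL_2. With median-of-ratios scaling it was 0.26 with sgOGDHL_1 and -0.47 with sgOGDHL_2. BROX rose in the libraries labelled sgOGDHL_2 in DMSO, to 21.7 ± 0.260 TPM, against 12.7 ± 1.27 TPM in sgAAVS DMSO libraries (SD, n = 3 each; log2 difference 0.73, limma adjusted p = 8.8e-05), and passed at 0.40 after median-of-ratios scaling (limma adjusted p = 0.0023). MIA3 rose there as well, to 23.6 ± 1.32 TPM, against 16.4 ± 0.254 TPM (log2 difference 0.49, limma adjusted p = 0.0017), but not with median-of-ratios scaling (0.16, limma adjusted p = 0.11). In that comparison 41.0% of all tested genes were called higher.

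The drug response itself was compared between guides. For the sum, the response with sgOGDHL_1 less that with sgAAVS was -0.54 ± 0.17 (SE) on the log2 scale, and with sgOGDHL_2 it was 0.14 ± 0.17 (SE), both given without a test. These values were larger in size after median-of-ratios scaling (-0.87 with sgOGDHL_1 and 0.54 with sgOGDHL_2) or quantile normalization (-0.94 and 0.52 in that order). For BROX the difference of responses was -0.50 with sgOGDHL_1 (limma adjusted p = 0.086). It passed with median-of-ratios scaling (-0.82, limma adjusted p = 6.1e-04), with quantile normalization and with the mitochondrially encoded genes removed. For MIA3 it was -0.064 with sgOGDHL_1 (limma adjusted p = 0.79), and it passed under the same 3 settings (-0.40, -0.49 and -0.46 in that order, limma adjusted p of 0.0083 to 0.026). With sgOGDHL_2 the difference of responses passed for BROX (-0.67, limma adjusted p = 0.0058) and MIA3 (-0.49, limma adjusted p = 0.025), against 34.9% of all tested genes called lower. Both rest on the libraries labelled sgOGDHL_2 in DMSO, and with median-of-ratios scaling neither passed (BROX -0.26, adjusted p = 0.13; MIA3 -0.076, adjusted p = 0.62).

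By their profile over the 18 libraries, the genes most like the AIDA plus AIDAP1 sum were NKX6-1, a homeobox transcription factor (Pearson r = 0.992), ZNF711, a zinc-finger protein (0.991), MACIR, a regulator of macrophage metabolism (0.990), SLC4A4, a sodium bicarbonate cotransporter (0.989), and the pseudogene HMGN2P46 (0.989). The libraries share only 6 groups, so these values describe levels by group, and the order of the groups can still differ. ZNF711 was lowest in sgAAVS DMSO libraries (mean 0.140 TPM), where the sum had its highest mean of the DMSO groups (17.8 TPM). NKX6-1 averaged 8.65 ± 1.40 TPM in sgAAVS Enza libraries, against 1.53 ± 0.104 TPM in sgAAVS DMSO libraries (SD, n = 3 each), and MACIR 14.1 ± 2.09 TPM against 4.29 ± 0.186 TPM. In sgOGDHL_1 Enza libraries NKX6-1 averaged 5.54 ± 0.375 TPM and MACIR 10.7 ± 0.806 TPM, both below their sgAAVS Enza means. The gap was smaller for ZNF711 (0.938 against 1.10 TPM), SLC4A4 (1.01 against 1.19 TPM) and HMGN2P46 (3.55 against 3.64 TPM). All were chosen for likeness to the sum in these same libraries, so a shared difference is no separate result. BROX came at rank 64 (r = 0.954) and MIA3 at rank 363 (r = 0.808) of 13414 genes.

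Lists of genes that work with the proteins encoded here were counted in the same comparison. Of 19 tested genes of Axin and JNK signalling, in which AIDA acts, 2 rose and 2 fell in sgAAVS Enza against sgAAVS DMSO libraries (median log2 difference -0.10, against -0.049 over all tested genes). With 9.28% of all tested genes called higher and 11.6% lower, counts of this size are near the background, here and in the lists on Hedgehog genes, RNA polymerase I and the COPII coat. The transcription factor JUN, a substrate of JNK, averaged 31.0 ± 5.12 TPM in Enza and 16.3 ± 1.12 TPM in DMSO (SD, n = 3 each; log2 difference 0.88, limma adjusted p = 3.6e-04), and the Wnt pathway scaffold APC rose by 0.32 (adjusted p = 0.022). The kinases MAP2K4 (-0.30, adjusted p = 0.03) and MAP3K4 (-0.30, adjusted p = 0.005), both upstream of JNK, fell. Of 16 tested genes of ER-associated degradation and the lipid enzymes, 1 rose and 4 fell (median -0.21, background 9.28% and 11.6%). The triglyceride enzyme DGAT2 rose (0.57, limma adjusted p = 0.012). Among those that fell were the ubiquitin-conjugating enzyme UBE2J1 (-1.15, limma adjusted p = 2.5e-06) and the triglyceride enzyme DGAT1 (-0.84, limma adjusted p = 0.0083). The acyltransferase MOGAT2 was also counted (-1.06), at 0.0462 ± 0.0162 TPM in Enza and 1.19 ± 0.125 TPM in DMSO (SD, n = 3 each). Of these groups only DMSO averaged 1 TPM or more, the level of the filter, so the call of MOGAT2 is a description only. None of the 17 Bro1-domain and ESCRT-III genes was called by limma in either direction (median 0.038; 1 higher and 0 lower at an unadjusted p under 0.05; background 9.28% higher and 11.6% lower). Of 3 tested Hedgehog genes, the receptor PTCH1 rose (0.40, adjusted p = 0.0046). Of 14 tested genes of RNA polymerase I initiation, POLR1F, a subunit of that polymerase, fell (-0.53, adjusted p = 0.0014). Of 14 tested genes of ER exit and the COPII coat, the GTPase SAR1A rose (0.41, adjusted p = 0.029) and the cargo adaptors SEC24D (-0.33, adjusted p = 0.012) and SEC24B (-0.32, adjusted p = 0.0095) fell. FAM177A1, the relative of FAM177B, fell (-0.35, adjusted p = 0.009).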

How the data were processed

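The authors' deposited table holds TPM for 37347 rows in 18 libraries; the submitters' processing notes name STAR and GRCh38, while what counted the reads, and on which annotation, is not given in the sources used here. Per the labels' protocols, mRNA libraries were stranded and read as pairs of 50 bases. TPM keeps no depth, so precision comes from the spread of 3 libraries per group.

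Left out were 10345 rows that carry no gene name (4.24% to 9.68% of TPM) and 69 rows whose symbols (3) recur in 5 or more places; rows sharing a symbol were added up for 32 others. The deposited TPM values entered as log2(TPM + 1), which understates the change of low genes. Genes reaching 1 TPM in 3 or more libraries (13416) were fitted with limma 3.58.1 (R 4.3.3), using 1 mean per group over all 18 libraries, 12 residual degrees of freedom, a trended prior and Benjamini-Hochberg adjustment; an adjusted p under 0.05 was called. For the sum, AIDA and AIDAP1 were replaced by their total; guide comparisons of AIDA, AIDAP1 and the sum, planned as tests, are given as descriptions because the same libraries chose both genes. The fit was tested on simulated data. The members, lists and tests were chosen with earlier results of these data known.

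Named were the 7 genes, tested neighbours of AIDA, called neighbours of AIDAP1, up to 4 called genes of each list by size of change with sgAAVS, 5 genes by likeness, OGDHL and KLK3. Replicate numbers paired sgOGDHL_1 and sgAAVS Enza libraries by correlation alone (0.25, 0.11 and 0.20 for the departures of same-number libraries from their group means, the highest for each library). Sequences were aligned with Biopython 1.88 on Python 3.11.15, with numpy 2.4.6 and pandas 2.3.3, and figures drawn with matplotlib 3.10.9. Alternatives tried were a pseudocount of 0.1 or 5, a filter at 5 TPM or none, quantile normalization, median-of-ratios scaling, removal of the 37 mitochondrially encoded rows, fits of a comparison's own groups, a fit without the libraries labelled sgOGDHL_2 DMSO, a replicate block, leaving out each library, and, chosen after seeing the data, AIDAP2 in the sum.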

Additional observations from a re-analysis of the deposited data

Results flagged for a closer look

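The response of BROX to Enza was smaller in sgOGDHL_2 than in sgAAVS libraries (difference of the log2 differences -0.67, limma adjusted p = 0.0058), and so was that of MIA3 (-0.49, limma adjusted p = 0.025). Each stood out because the difference between guides passed its own test. In that comparison 34.9% of all tested genes were called lower, and the median over them was -0.26. With median-of-ratios scaling neither BROX nor MIA3 passed. In Enza, BROX averaged 70.8 ± 4.37 TPM with sgOGDHL_2 and 68.4 ± 10.2 TPM with sgAAVS (SD, n = 3 each). In DMSO it averaged 21.7 TPM with sgOGDHL_2 and 12.7 TPM with sgAAVS. The libraries labelled sgOGDHL_2 DMSO stand apart from the other 15, and their part in the difference was not tested.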

How the results depend on the processing

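The direction and call of BROX for Enza held in all 3 guide backgrounds under every alternative run, and those of MIA3 held with sgAAVS. MIA3 with sgOGDHL_1 did not pass in a fit of its own groups (0.68) and passed at 0.35 to 0.41 with the other scalings or mitochondrially encoded genes removed. MIA3 with sgOGDHL_2 passed with no filter (0.26), in a fit of its own groups (0.26), with median-of-ratios scaling (0.69), quantile normalization (0.68) and mitochondrially encoded genes removed (0.45). It also passed without any 1 of 4 libraries (0.21 to 0.34 over all omissions), which were sgAAVS Enza replicate 1 or 2, sgOGDHL_1 DMSO replicate 3 and sgOGDHL_2 Enza replicate 2.

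For sgOGDHL_1 against sgAAVS in DMSO, rescaling turned small values below 0 into values above 0, at which BROX and MIA3 were called higher. In the order of median-of-ratios scaling, quantile normalization and mitochondrially encoded genes removed, these were 0.18, 0.20 and 0.22 for AIDA, 0.26, 0.30 and 0.29 for the sum, 0.30, 0.33 and 0.33 for BROX, and 0.32, 0.35 and 0.35 for MIA3. AIDAP1 (-0.12) turned as well, to 0.31, 0.33 and 0.35 in the same order. The sum there ranged from -0.27 (without sgOGDHL_1 DMSO replicate 3) to -0.13 over omissions. For sgOGDHL_2 against sgAAVS in DMSO the sum (-0.15) was -0.47 after median-of-ratios scaling and -0.36 after quantile normalization; AIDA (-0.057) was -0.36 and -0.31. The difference between the drug responses of sgOGDHL_2 and sgAAVS moved for AIDA (0.0096) to 0.40 and 0.42 and for the sum (0.14) to 0.54 and 0.52 with those 2 settings; it changed sign for AIDA with a pseudocount of 5 (-0.0069) and over omissions (-0.092 to 0.12), and for the sum with AIDAP2 added (-0.032). For sgOGDHL_1 that of the sum (-0.54) was -0.87, -0.94 and, with mitochondrially encoded genes removed, -0.93. For sgOGDHL_2 that of MIA3 (-0.49) did not pass without any 1 of 7 of the 12 libraries it uses (-0.59 to -0.39 over omissions).

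The count of neighbours within 1 Mb of AIDA called higher with sgAAVS (3) was 5 with no filter and 8 with mitochondrially encoded genes removed, settings in which more genes were tested. With the mitochondrially encoded genes removed, 4636 of all tested genes were called higher, against 1245 in the main fit. With sgOGDHL_1 (4) it was 8 with no filter, 1 in a fit of its own groups and 2 to 4 over omissions, 2 without sgOGDHL_1 Enza replicate 1, DMSO replicate 1 or DMSO replicate 2. With sgOGDHL_2 (1) it was 5 with no filter, 5 with mitochondrially encoded genes removed, 2 with either of the other scalings or in a fit of its own groups, and 1 to 2 over omissions. The causes were not tested.

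With the replicate number as a block, sgOGDHL_1 against sgAAVS in Enza gave -0.79 for AIDA, -0.72 for the sum and -0.64 for BROX (limma adjusted p = 0.0067), and the block changed no call of BROX or MIA3 in any comparison. TPM keeps no depth, so the precision of TAF1A, FAM177B and DISP1 is unknown.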
